A study of Homo sapiens with 10 samples.

Results

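The genes described here are 34 human genes of the lysosome, the acidic compartment in which cells break down proteins, sugars and lipids. They were chosen by name: 8 peptidase genes, 11 glycosidase genes, 4 sulfatase genes, 6 genes for lipid hydrolases and their helper proteins, 4 membrane protein genes and TFEB, a transcription factor gene. All 34 were found by gene name among the 50868 genes of the expression table. Their RNA was counted in Kasumi-1 cells, a human myeloid leukemia line with the t(8;21) translocation, after retroviral transfer of HA-tagged E2-2, E2A or HEB, against cells given the MigR1 vector alone. E2-2, E2A and HEB are E proteins, basic helix-loop-helix transcription factors encoded by TCF4, TCF3 and TCF12. The cells of all groups were sorted for GFP and their RNA was taken 4 days after infection. There was 1 RNA library per group. The transferred factors were overexpressed in cells that kept their own genes, and reads of a transferred and a resident copy are counted together. The HA ChIP-seq libraries were not analysed here.

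Lysosomal enzymes are made in the endoplasmic reticulum, tagged in the Golgi with mannose 6-phosphate and carried to the lysosome by receptors that bind this tag. Loss of a single one of these enzymes leaves its substrate undegraded, which is the cause of the lysosomal storage diseases. TFEB and its relatives MITF, TFE3 and TFEC bind a DNA element with the core CACGTG in front of many lysosomal genes, and mTORC1 on the lysosome surface keeps them out of the nucleus in fed cells. E proteins bind the wider family of E-boxes, written CANNTG. In myeloid cells the granules that store myeloperoxidase and serine proteases are related to lysosomes, and CTSC is the peptidase that activates those proteases.

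The libraries held 14816708 to 17673090 counted reads. Levels are given in CPM, counts scaled to a library of 1000000 after TMM scaling. CPM are not divided by gene length, so they compare libraries for 1 gene and not different genes. Each fold is the ratio of scaled counts, with a 95% exact counting interval in parentheses. Each group is a single library, so no replicate check and no test were possible. The interval covers counting error only and leaves out differences between cultures. A call of higher or lower needed a difference of 2-fold or more, an interval without 1 and a sum of at least 30 reads in both libraries. All 34 genes met that minimum in every comparison. The transferred gene was highest in its own library in each case: TCF4 had 12484 reads in E2-2 against 4 in vector, TCF3 23186 in E2A against 3934 in vector, and TCF12 13842 in HEB against 2568 in vector. Kasumi-1 markers were present in all libraries, with 170661 to 298092 reads of MPO and 9497 to 13607 of KIT, the stem cell factor receptor gene. CD38 was the weakest of these markers, with 11 to 22 reads.

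Sequence in front of the genes is shown for the 3 that were called in any comparison, TFEB, FUCA1 and NPC2. It is also shown for GAA, which had the lowest fold in E2-2, and for LAMP1, which held the most CACGTG copies. GAA and LAMP1 were added after their values were seen. The bases are from RefSeq (GRCh38.p14), 5′ to 3′ on the strand of the gene, with every CANNTG in capitals. For TFEB and NPC2 the E-boxes lie inside the span of the gene, in front of a start site used by some transcripts, and only 30 bases around each are given.
TFEB chr6:41734588-41734617 (minus strand): cccccgggttccCAGCTGcctgcccgcccc
TFEB chr6:41734422-41734451 (minus strand): gaagggagcgggCAGATGccagctcggccc
TFEB chr6:41735244-41735273 (minus strand): gggtcccggagaCAGGTGggagggtggggg
NPC2 chr14:74493381-74493410 (minus strand): gcgggcgggcctCAGCTGtggttactggtg
FUCA1 chr1:23868295-23868540 (minus strand): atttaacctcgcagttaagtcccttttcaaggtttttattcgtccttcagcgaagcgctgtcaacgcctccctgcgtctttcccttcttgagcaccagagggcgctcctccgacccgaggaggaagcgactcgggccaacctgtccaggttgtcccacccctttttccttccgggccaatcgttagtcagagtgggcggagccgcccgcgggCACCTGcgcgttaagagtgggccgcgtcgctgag
GAA chr17:80101331-80101555 (plus strand): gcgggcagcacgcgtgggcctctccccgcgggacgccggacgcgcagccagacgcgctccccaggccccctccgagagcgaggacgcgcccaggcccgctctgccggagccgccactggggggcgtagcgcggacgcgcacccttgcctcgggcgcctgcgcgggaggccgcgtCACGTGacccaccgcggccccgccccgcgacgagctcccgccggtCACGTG
LAMP1 chr13:113296989-113297238 (plus strand): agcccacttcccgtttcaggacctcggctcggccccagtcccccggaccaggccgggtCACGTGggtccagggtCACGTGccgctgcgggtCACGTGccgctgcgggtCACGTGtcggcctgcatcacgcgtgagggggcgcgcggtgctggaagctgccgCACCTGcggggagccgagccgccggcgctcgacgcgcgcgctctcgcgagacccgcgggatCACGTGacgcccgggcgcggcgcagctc
The FUCA1 stretch holds a single E-box, CACCTG, whose first base is 38 bases before the RefSeq start site. GAA holds CACGTG at 76 and at 31 bases before its RefSeq start site. These start sites lie inside the spans that the expression table gives for both genes. LAMP1 holds 5 copies of CACGTG and 1 CACCTG.

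RefSeq start sites with 250 bases before them were available for 25 of the 34 genes. Motifs were searched in those 250 bases, on both strands. CACGTG lay in the windows of 7 of them (28.0%): ARSB, CTSA, CTSD, GAA, LAMP1, MCOLN1 and NEU1. Of 27305 human genes with such a window, 7.73% held it. CAGCTG lay in the windows of 7 of the 25 (28.0%), against 16.7% of all genes, and CACCTG in 6 (24.0%), against 20.6%. Some E-box of the form CANNTG was present for 21 of the 25 (84.0%) and for 66.7% of all genes. A gene with several start sites has several windows, and the 3 6-base motifs are also counted under CANNTG. Of the 7 genes with CACGTG, 2 had a fold above 1 in E2-2 against vector, 1 in E2A and 4 in HEB, with median log2 folds of -0.09, -0.33 and 0.00. Of the 18 without CACGTG the numbers above 1 were 10, 7 and 8, with medians of 0.08, -0.12 and -0.04. For CAGCTG, 6 of 7 genes had a fold above 1 in E2-2, 4 in E2A and 5 in HEB, with medians of 0.38, 0.09 and 0.10, against 6, 4 and 7 of the 18 without it. For CACCTG, 4 of 6 genes had a fold above 1 in E2-2, 2 in E2A and 3 in HEB, against 8, 6 and 9 of the 19 without it.

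TFEB, the regulator of the group, had the largest fold in E2-2 and in E2A. TFEB (ENSG00000112561, GRCh38 chromosome 6, 41683978 to 41736259) had 55 reads in E2-2, 55 in E2A and 22 in HEB, against 15 in vector. This corresponds to 3.63 CPM in E2-2, 3.11 in E2A and 1.33 in HEB, against 0.962 in vector. E2-2 and E2A stood together above HEB and vector. Its fold over vector was 3.77 in E2-2 (2.10 to 7.19) and 3.24 in E2A (1.80 to 6.17), both called. In HEB it was 1.38-fold higher with an interval of 0.685 to 2.87, which holds 1. It was the least counted of the 34 genes, and its intervals were the widest. Its relative TFE3 was counted at 605 reads in E2-2, 632 in E2A and 585 in HEB, against 544 in vector, and was not called. MITF had 2 to 7 reads and TFEC 0 to 4 in the 4 libraries.

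**Figure D1:**
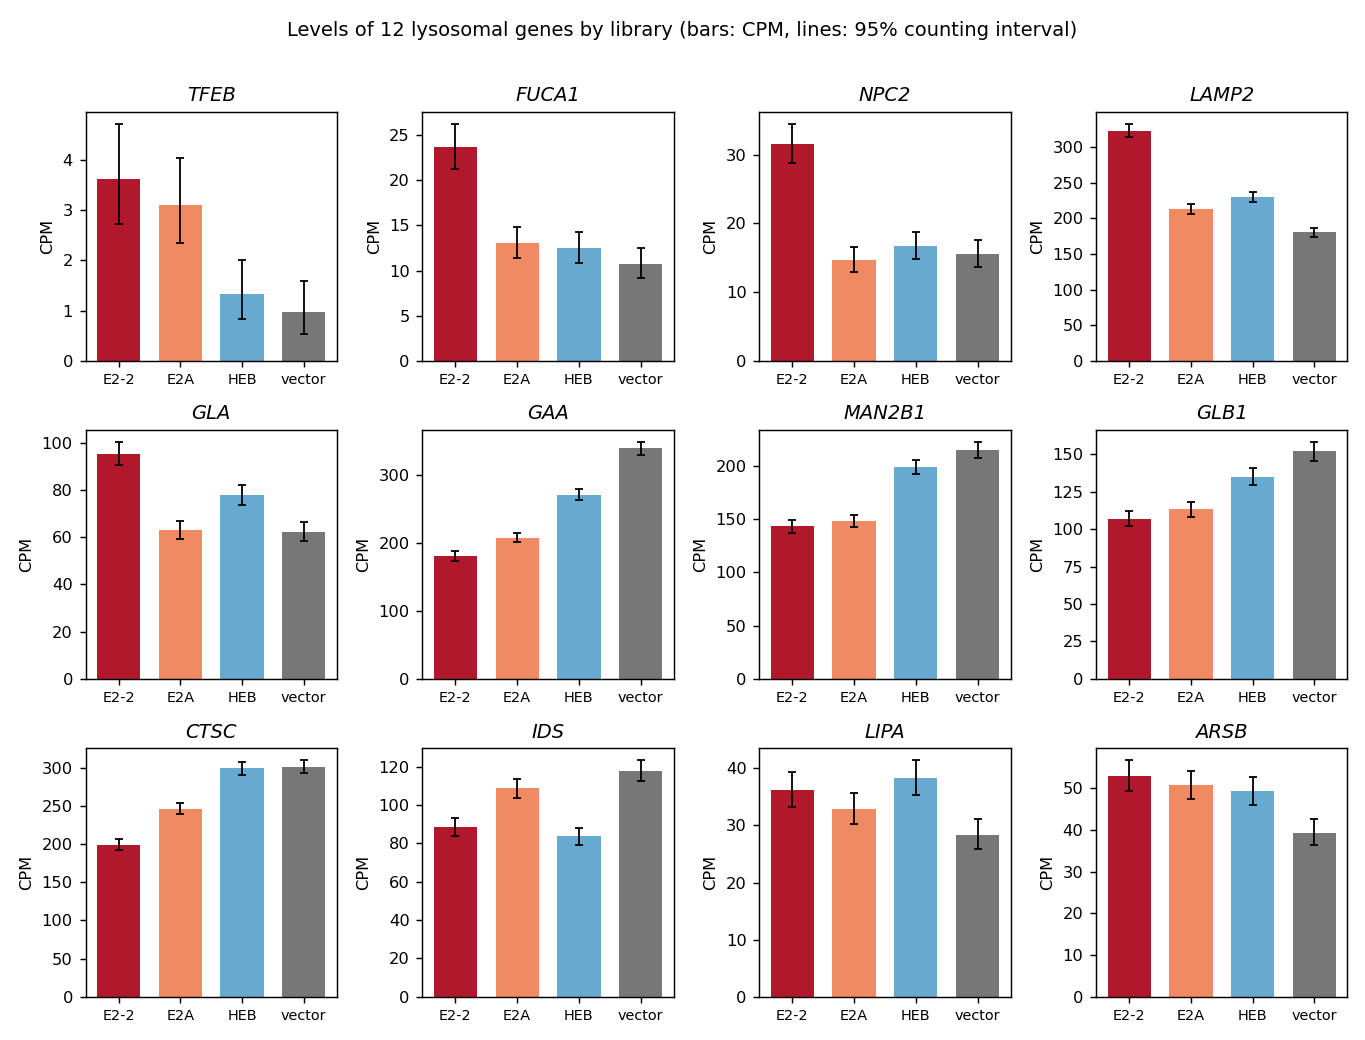
Levels in CPM (vertical axis, linear from 0) of 12 lysosomal genes in the E2-2, E2A, HEB and vector libraries, 1 bar per library with its 95% counting interval. TFEB stands at 3.63 and 3.11 CPM in E2-2 and E2A and at 1.33 and 0.962 in HEB and vector, FUCA1, NPC2 and LAMP2 are highest in E2-2, and GAA is lowest in E2-2 at 181 CPM and highest in vector at 339.

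As a group the 34 genes were not shifted 1 way in E2-2. In E2-2 against vector, 3 of the 34 were called higher, TFEB, FUCA1 and NPC2, which is 8.82% beside a background of 8.45% of all measured genes. None was called lower, beside 3.55% of all genes. The counts of calls are thus near the background. Folds were above 1 for 16 genes and below 1 for 18, beside 46.9% and 53.1% of all genes, with a median log2 fold of -0.04 (0.01 when scaled by summed counts) beside -0.03 for all genes. The interval lay above 1 for 12 genes and below 1 for 13, beside 27.3% and 30.8% of all genes. At a threshold of 1.5-fold, 5 genes were higher, beside 13.5% of all genes, and 4 lower, beside 9.43%. The additional higher genes were LAMP2 and GLA, and the lower ones were GAA, IDUA, CTSC and MAN2B1.

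E2A lay lower than vector for most of the group, by small folds. In E2A against vector, TFEB was the only gene called (background 4.89% higher and 1.58% lower), but 24 of the 34 folds were below 1 and 10 above, beside 51.2% and 48.8% of all genes. The interval lay below 1 for 19 of the 34, beside 24.2% of all genes, and above 1 for 4, beside 22.7%. Well counted genes have narrower intervals, so these shares also depend on depth. At 1.5-fold 1 gene was higher, TFEB (8.41% of all genes), and 1 lower, GAA (5.01%). The group median on the log2 scale was -0.14, beside -0.01 for all genes. E2A was the lowest of the 4 libraries for 15 of the 34 genes. This order takes no account of counting error, and the share over all genes was not counted. NEU1, for example, was at 42.9 CPM in E2A against 44.0 in vector. Summed over the group, levels were 3221 CPM in E2-2, 2911 in E2A and 3276 in HEB, against 3420 in vector.

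In HEB against vector no gene was called, beside a background of 2.55% higher and 1.23% lower, and all 34 folds were within 1.5-fold, where 4.80% of all genes were 1.5-fold higher and 3.73% lower. Folds were above 1 for 15 genes and below 1 for 19, beside 52.5% and 47.5% of all genes. The interval lay above 1 for 5 and below 1 for 12, beside 21.1% and 16.9%. The group median on the log2 scale was -0.04, beside 0.01 for all genes. IDS had the lowest fold in HEB and TFEB the highest. The E2-2, E2A and HEB comparisons share the vector library, so their folds are not independent.

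**Figure D2:**
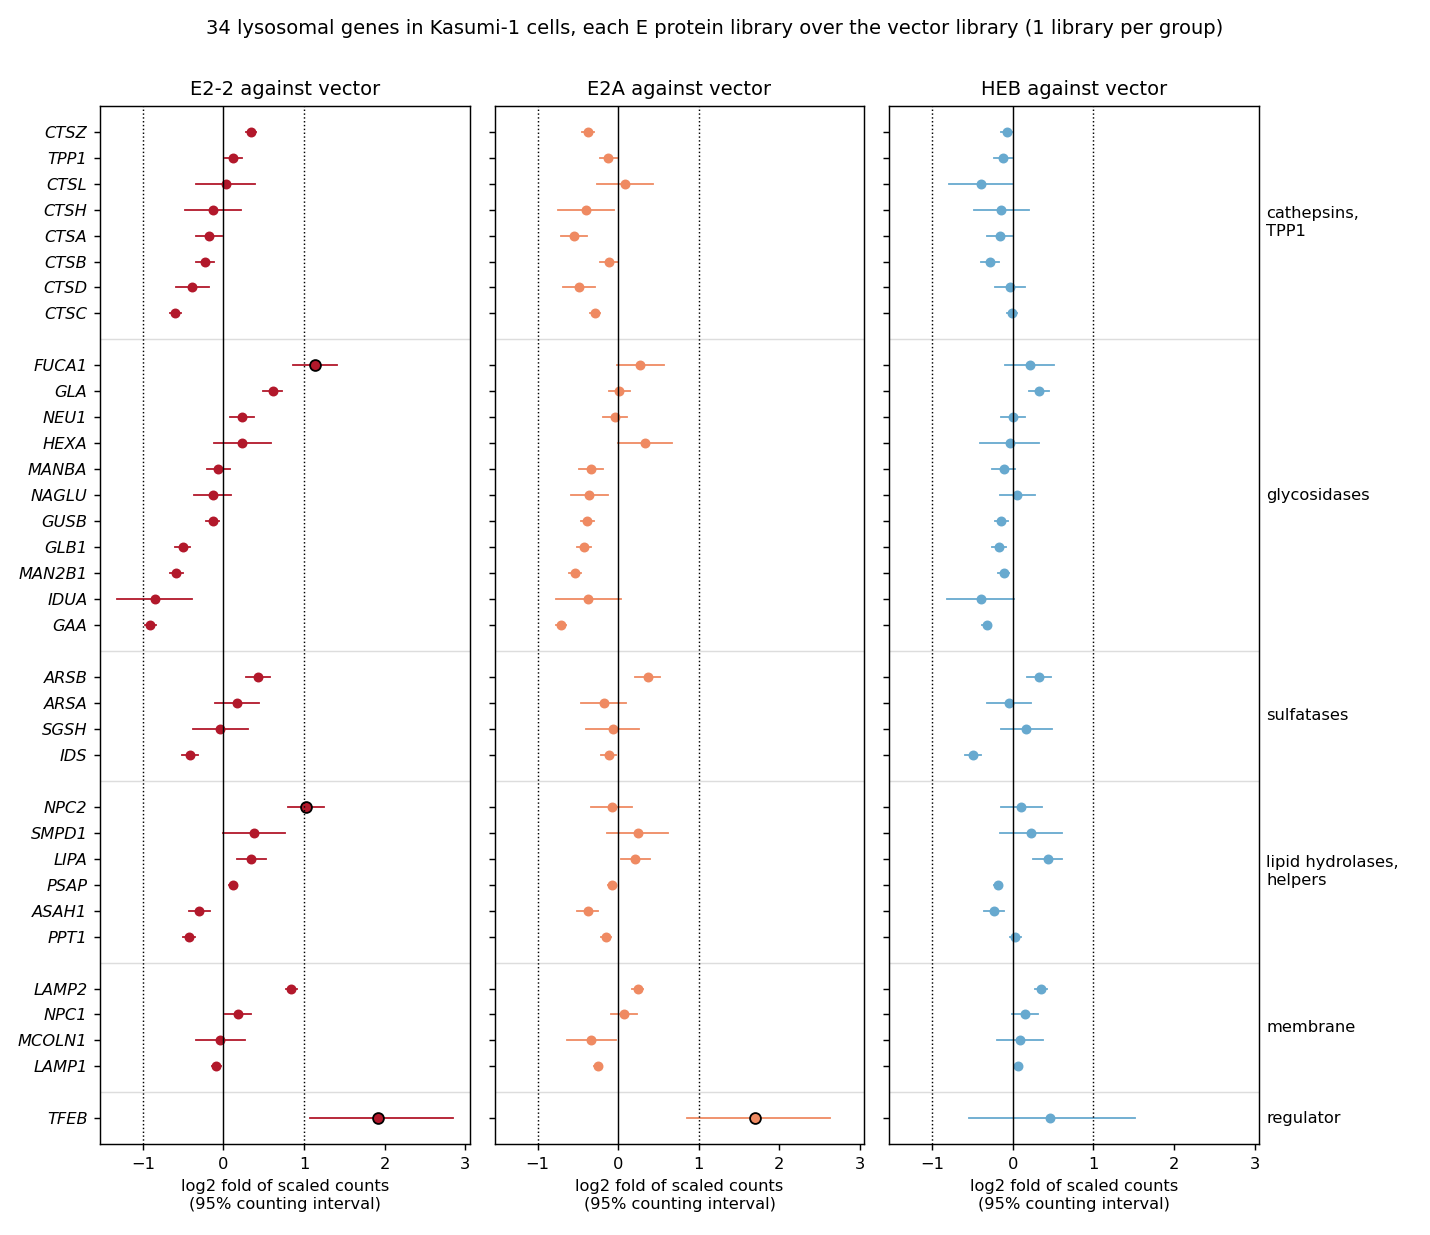
Log2 fold of scaled counts (horizontal axis) for each of the 34 genes in E2-2, E2A and HEB against vector, grouped by role, with 95% counting intervals as lines, called genes ringed in black and dotted lines at 2-fold. TFEB, FUCA1 and NPC2 lie beyond the right dotted line in E2-2 and TFEB alone does so in E2A, while most points in E2A lie left of 0.

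The cathepsins and TPP1 digest proteins. CTSB, CTSC, CTSH, CTSL and CTSZ are cysteine peptidase genes, CTSD encodes an aspartic peptidase and CTSA and TPP1 encode serine peptidases. None of the 8 was called. CTSC (chromosome 11, 88293592 to 88337787) was at 199 CPM in E2-2, 246 in E2A and 299 in HEB, against 301 in vector. It was lowest in E2-2, 1.51-fold (1.44 to 1.58) below vector, while HEB and vector differed by 1.01-fold (0.967 to 1.05). CTSD, whose product is a main lysosomal endopeptidase, was at 22.8 CPM in E2-2, 21.3 in E2A and 29.1 in HEB, against 29.9 in vector. Here E2-2 and E2A lay together below HEB and vector. CTSA, whose product also shields NEU1 and GLB1 from degradation, was at 39.3 CPM in E2-2, 30.3 in E2A and 39.7 in HEB, against 44.4 in vector. It was among the 3 genes that differed most from vector in E2A, 1.46-fold (1.30 to 1.64) below vector.

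Among these 8 genes, CTSZ had the highest fold over vector in E2-2. It was at 276 CPM in E2-2, 168 in E2A and 207 in HEB, against 217 in vector, 1.27-fold (1.21 to 1.33) above vector in E2-2 and 1.30-fold (1.23 to 1.36) below it in E2A. CTSB was at 77.0 CPM in E2-2, 83.3 in E2A and 73.9 in HEB, against 90.0 in vector. CTSL had among the smallest folds in E2-2, with 127 reads in E2-2, 154 in E2A and 103 in HEB, against 128 in vector, and CTSH, an aminopeptidase, had 128 to 149 reads. TPP1, which removes tripeptides, stayed between 82.2 and 97.4 CPM. The median log2 fold of the 8 genes was -0.15 in E2-2, -0.33 in E2A and -0.13 in HEB. In E2-2, 4 of the 8 intervals lay below 1 and 2 above, in E2A 7 below and 0 above, and in HEB 5 below and 0 above. Over all genes the shares below and above 1 were 30.8% and 27.3% in E2-2, 24.2% and 22.7% in E2A, and 16.9% and 21.1% in HEB.

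The glycosidases, which trim sugar chains, held the lowest fold of the 34 genes in E2-2, that of GAA, and the highest after TFEB, that of FUCA1. GAA (ENSG00000171298, chromosome 17, 80101556 to 80119879), the acid alpha-glucosidase that digests glycogen, had 2740 reads in E2-2, 3666 in E2A and 4486 in HEB, against 5294 in vector. At 181 CPM in E2-2, 207 in E2A and 271 in HEB, against 339 in vector, the 4 libraries stood apart from each other beyond counting error. E2-2 lay 1.88-fold below vector (1.79 to 1.97), E2A 1.64-fold (1.57 to 1.71) and HEB 1.25-fold (1.20 to 1.30), all under the 2-fold rule. MAN2B1, a lysosomal alpha-mannosidase, was at 143 CPM in E2-2, 148 in E2A and 199 in HEB, against 215 in vector. GLB1, the acid beta-galactosidase, was at 107 CPM in E2-2, 113 in E2A and 135 in HEB, against 152 in vector. For both genes E2-2 and E2A lay together and lowest. IDUA, which cuts heparan and dermatan sulfate, had 61 reads in E2-2, 99 in E2A and 91 in HEB, against 113 in vector, and was 1.80-fold (1.31 to 2.50) below vector in E2-2.

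FUCA1 (ENSG00000179163, chromosome 1, 23845077 to 23868294), which removes fucose, was the only enzyme of this subgroup called. It had 359 reads in E2-2, 230 in E2A and 206 in HEB, against 168 in vector, or 23.7, 13.0 and 12.4 CPM in the E protein libraries, against 10.8 CPM in vector. E2-2 stood alone above the other 3 libraries. FUCA1 was 2.20-fold (1.82 to 2.66) higher in E2-2 than in vector. In E2A the fold was 1.21 (0.986 to 1.48) and in HEB 1.16 (0.938 to 1.43). GLA, the alpha-galactosidase lacking in Fabry disease, was at 95.2 CPM in E2-2, 62.9 in E2A and 77.7 in HEB, against 62.2 in vector. It was 1.53-fold (1.41 to 1.66) above vector in E2-2 and 1.25-fold (1.15 to 1.36) in HEB, while E2A and vector differed by 1.01-fold (0.927 to 1.10).

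The other glycosidase genes differed by less than 1.5-fold between any 2 libraries. GUSB, a beta-glucuronidase often used as a reference gene, was at 145 CPM in E2-2, 122 in E2A and 144 in HEB, against 159 in vector. NEU1, a sialidase, was at 51.8 CPM in E2-2, 42.9 in E2A and 44.1 in HEB, against 44.0 in vector, and was within 1.03-fold of vector in E2A and HEB, among the 3 smallest differences in each. MANBA, a beta-mannosidase, lay between 40.0 and 50.3 CPM, NAGLU, which acts on heparan sulfate, between 16.9 and 22.5, and HEXA, a subunit of beta-hexosaminidase, between 7.92 and 10.2. The median log2 fold of the 11 genes was -0.13 in E2-2, -0.36 in E2A and -0.11 in HEB.

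Sulfatases remove sulfate from glycosaminoglycans and sulfolipids, and all depend on SUMF1, the enzyme that converts their active site. None of the 4 was called. IDS (chromosome X, 149476990 to 149521096), the iduronate sulfatase lacking in Hunter syndrome, was at 88.6 CPM in E2-2, 109 in E2A and 83.8 in HEB, against 118 in vector. E2-2 and HEB lay together at the low end. IDS was 1.41-fold (1.31 to 1.51) below vector in HEB, the largest fold of the 34 genes there. ARSB, which acts on dermatan sulfate, was at 53.0 CPM in E2-2, 50.7 in E2A and 49.3 in HEB, against 39.4 in vector, so the E protein libraries lay close together above vector. Its folds were 1.35 in E2-2, 1.29 in E2A and 1.25 in HEB, with lower interval bounds of 1.21, 1.16 and 1.13. ARSA was at 12.4 to 15.8 CPM and SGSH at 9.23 to 10.9. SUMF1 itself was at 15.6 CPM in E2-2, 15.5 in E2A and 19.4 in HEB, against 23.1 in vector, 1.49-fold (1.26 to 1.76) below vector in E2-2 and not called.

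Among genes for lipid breakdown, NPC2 was the only call against vector, in E2-2. NPC2 (ENSG00000119655, chromosome 14, 74476192 to 74494177) encodes a soluble protein that hands cholesterol to NPC1 for export from the lysosome. It had 478 reads in E2-2, 259 in E2A and 276 in HEB, against 242 in vector, or 31.5, 14.7 and 16.7 CPM in the E protein libraries, against 15.5 CPM in vector. The E2-2 value lay alone above the other 3 libraries, which overlapped within counting error. NPC2 was 2.03-fold (1.74 to 2.38) higher in E2-2 than in vector, just inside the 2-fold rule. Its fold was 0.945 in E2A and 1.08 in HEB, with intervals that hold 1. NPC2 overlaps ISCA2 in the table, and ISCA2 was at 9.76 CPM in E2-2, 12.7 in E2A and 7.80 in HEB, against 8.08 in vector.

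LIPA, the acid lipase that frees cholesterol from its esters, was at 36.1 CPM in E2-2, 32.9 in E2A and 38.3 in HEB, against 28.4 in vector. HEB was highest, 1.35-fold (1.19 to 1.53) above vector. The span of LIPA in the table also covers IFIT1, IFIT2 and IFIT3, interferon-induced genes that were each lower in the 3 E protein libraries than in vector, for example IFIT3 at 33.5, 27.5 and 24.8 CPM in E2-2, E2A and HEB, against 39.9 in vector. PPT1, which removes fatty acids from proteins, was at 178 CPM in E2-2, 215 in E2A and 244 in HEB, against 238 in vector, lowest in E2-2 by 1.34-fold (1.28 to 1.41) and level with vector in HEB at a fold of 1.02 (0.978 to 1.07). ASAH1, the acid ceramidase, was at 54.6 CPM in E2-2, 51.6 in E2A and 57.1 in HEB, against 67.1 in vector. PSAP, the precursor of the saposins that help lipid hydrolases, had the most reads of the 34 genes and lay between 389 CPM in HEB and 477 in E2-2, with 441 in vector. SMPD1, the acid sphingomyelinase, had 103 to 138 reads.

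The membrane protein genes had folds on both sides of 1 in E2-2, and none was called. LAMP1 and LAMP2 are the glycoproteins that line the lysosomal membrane. LAMP2 (ENSG00000005893, chromosome X, 120427827 to 120469365) had 4904 reads in E2-2, 3764 in E2A and 3805 in HEB, against 2812 in vector. At 323 CPM in E2-2, 213 in E2A and 230 in HEB, against 180 in vector, all 3 E protein libraries lay above vector. LAMP2 was 1.79-fold (1.71 to 1.88) above vector in E2-2, the highest fold below the rule among the 34 genes. LAMP1 was at 331 CPM in E2-2, 296 in E2A and 368 in HEB, against 352 in vector, 1.06-fold (1.02 to 1.11) below vector in E2-2. NPC1, the membrane partner of NPC2, was at 42.9 CPM in E2-2, 39.6 in E2A and 42.1 in HEB, against 37.8 in vector, and did not share the NPC2 fold of 2.03 in E2-2. MCOLN1, a calcium channel of the lysosome, had 181 reads in E2-2, 172 in E2A and 216 in HEB, against 191 in vector.

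**Figure D3:**
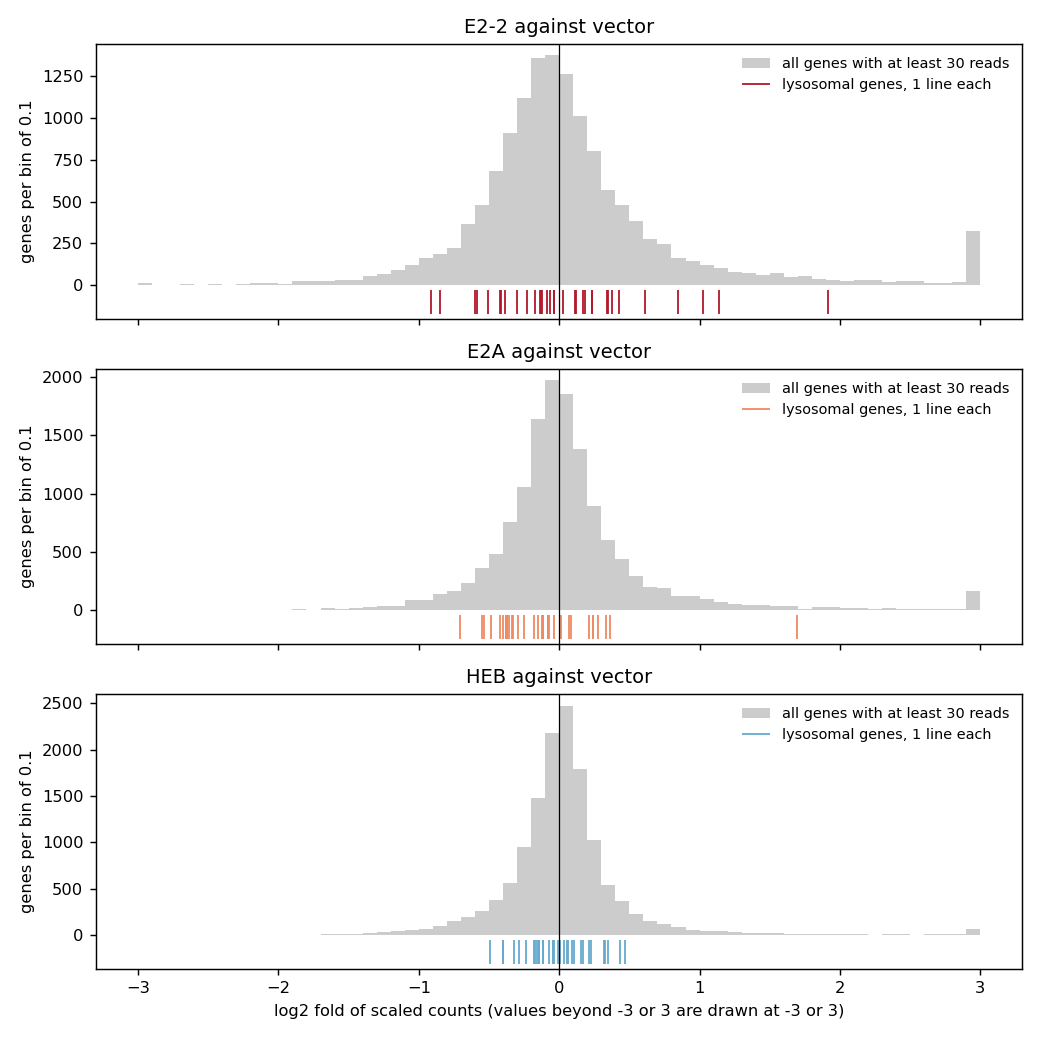
Distribution of log2 folds over all genes with at least 30 reads (grey bars, number of genes per bin of 0.1 on the horizontal axis) for E2-2, E2A and HEB against vector, with the 34 lysosomal genes as coloured lines under each. The lines spread over both sides of 0 in E2-2 and HEB, and in E2A 24 of 34 lie below 0.

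The direct comparisons asked where the E proteins differ from each other. TFEB was 2.73-fold (1.64 to 4.70) higher in E2-2 than in HEB and 2.34-fold (1.40 to 4.03) higher in E2A than in HEB. E2-2 and E2A differed by 1.17-fold with an interval of 0.787 to 1.72, which holds 1. NPC2 was 2.15-fold (1.84 to 2.51) higher in E2-2 than in E2A and 1.89-fold (1.63 to 2.20) higher than in HEB. FUCA1 was 1.82-fold (1.54 to 2.16) higher in E2-2 than in E2A and 1.90-fold (1.60 to 2.27) higher than in HEB, both below the rule. These were the only calls among the 34 genes: 1 of 34 higher in each direct comparison and none lower. The backgrounds were 3.63% higher and 1.61% lower for E2-2 against E2A, 6.09% and 1.57% for E2-2 against HEB, and 2.38% and 0.696% for E2A against HEB.

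The signs of the folds were uneven in the comparisons that involve E2A, mostly without reaching 1.5-fold. All comparisons with E2A, also that against vector, share the single E2A library, so their counts are not independent of each other. In E2-2 against E2A, 24 of 34 folds were above 1 and 10 below, beside 48.4% and 51.6% of all genes. In E2A against HEB, 10 were above 1 and 24 below, beside 48.0% and 52.0%. In E2-2 against HEB, 20 were above 1 and 14 below, beside 47.2% and 52.8%. Counting error leaves fewer: the interval lay above 1 for 13 and below 1 for 6 in E2-2 against E2A (21.4% and 23.3% of all genes). It lay above 1 for 6 and below 1 for 17 in E2A against HEB (18.5% and 21.7%), and above 1 for 10 and below 1 for 7 in E2-2 against HEB (24.7% and 28.8%). Median log2 folds were 0.15 in E2-2 against E2A, 0.04 in E2-2 against HEB and -0.19 in E2A against HEB, beside -0.01, -0.03 and -0.01 for all genes. The lean in E2A against HEB was not particular to the 34 genes. Of 14 housekeeping genes, 2 were above 1 and 12 below there, and of 14 mannose 6-phosphate tagging and delivery genes 3 and 11. The housekeeping genes had 7 above 1 and 7 below in E2A against vector, and 4 above and 10 below in E2-2 against E2A. CTSZ (1.64-fold, 1.57 to 1.72), LAMP2 (1.52-fold, 1.45 to 1.58) and GLA (1.51-fold, 1.40 to 1.64) joined NPC2 and FUCA1 as the 5 genes at least 1.5-fold higher in E2-2 than in E2A. The background there was 6.91% higher and 4.15% lower, and none of the 34 was 1.5-fold lower. In E2-2 against HEB, TFEB, FUCA1 and NPC2 were at least 1.5-fold higher (10.7% of all genes) and CTSC and GAA lower (6.03%), at 199 CPM in E2-2 against 299 in HEB and at 181 CPM in E2-2 against 271 in HEB. In E2A against HEB, TFEB alone was 1.5-fold higher (5.21%) and none lower (2.51%).

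Other genes of the lysosome were compared as lists. Of 44 measured other lysosomal enzymes and membrane proteins, 5 were called higher and 3 lower in E2-2 against vector, beside 8.45% and 3.55% of all genes. The leading one was LAPTM5, a lysosomal membrane protein gene of blood cells, at 320 CPM in E2-2, 104 in E2A and 103 in HEB, against 37.1 in vector. Over vector, LAPTM5 had a fold of 8.62 in E2-2 (7.91 to 9.42), of 2.80 in E2A (2.55 to 3.08) and of 2.77 in HEB (2.52 to 3.05). PLA2G15, a lysosomal phospholipase, was 3.79-fold (3.32 to 4.33) higher in E2-2, and the cystine exporter gene CTNS 2.27-fold (1.88 to 2.75). CTSS and CTSO, both cysteine cathepsins, were 3.43-fold and 2.66-fold (2.05 to 3.47) higher in E2-2. CTSO, CTNS, CTSS and PLA2G15 were not called in E2A or HEB. Below the rule, CTSS was still 1.75-fold (1.38 to 2.23) above vector in E2A and 1.43-fold (1.11 to 1.84) in HEB. PLA2G15 was 1.64-fold (1.42 to 1.90) and 1.30-fold (1.11 to 1.52) above vector there. For CTNS both intervals held 1.

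The genes called lower in E2-2 in this list were PLBD2, SCPEP1 and SIAE. SCPEP1, a serine carboxypeptidase gene, was at 53.5 CPM in E2-2, 58.7 in E2A and 61.6 in HEB, against 130 in vector, and was called lower in all 3, 2.42-fold for E2-2 (2.23 to 2.63), 2.21-fold for E2A (2.05 to 2.38) and 2.10-fold for HEB (1.95 to 2.27). PLBD2, whose E2-2 level was 2.86-fold (2.44 to 3.37) below vector, was 2.04-fold (1.78 to 2.35) below it in HEB, and SIAE, which removes acetyl groups from sialic acid, 2.04-fold (1.53 to 2.73) lower in E2-2. E2A against vector had 2 called higher, LAPTM5 and CTSK, and 1 lower. HEB against vector had 1 higher and 2 lower. The backgrounds of calls were 4.89% higher and 1.58% lower in E2A, and 2.55% and 1.23% in HEB. List medians on the log2 scale were 0.00 in E2-2, -0.12 in E2A and 0.00 in HEB.

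The proton pump that acidifies the lysosome had 3 of 18 measured subunit genes called higher in E2-2 and none lower, beside 8.45% and 3.55% of all genes. These were TCIRG1, 2.31-fold (1.96 to 2.72), ATP6V1C2, 7.09-fold (4.36 to 12.2), and ATP6V1B1, 9.26-fold (3.32 to 35.8), the last with 36 reads in E2-2 against 4 in vector. ATP6V1B1 reached the minimum of 30 reads only through E2-2, so it could only be called higher. The share of 3 in 18 therefore depends in part on the read minimum. In E2A and in HEB against vector, 17 pump genes were measured. A call for ATP6V1C2 was also made in E2A, at 2.32-fold (1.35 to 4.17), and likewise in HEB, at 2.18-fold (1.25 to 3.96). TCIRG1, ATP6V1C2 and ATP6V1B1 encode alternative forms of pump subunits that other tissues use more, such as osteoclasts for TCIRG1 and kidney for ATP6V1B1. The median log2 fold of the pump list was 0.08 in E2-2, -0.03 in E2A and 0.06 in HEB. Of 14 genes for mannose 6-phosphate tagging and delivery none was called in E2-2, E2A or HEB, with medians of -0.08, -0.07 and -0.03. Of 26 measured autophagy genes none was called against vector, with medians of 0.01, -0.06 and -0.09. In the list made for TFEB relatives and mTORC1 control, 1 of 21 was called higher in E2-2, and none in E2A or HEB. That gene was GPNMB, which is itself neither, with 30 reads in E2-2 against 12 in vector. Most of the reads that took GPNMB over the read minimum thus came from E2-2. RRAGD, a GTPase gene of mTORC1 control, was 1.75-fold (1.55 to 1.98) above vector in E2-2.

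Of 6 measured inhibitors of granule and lysosomal proteases, 2 were called lower in E2-2 and none higher, beside 3.55% and 8.45% of all genes, with a median log2 fold of -0.62. The interval lay below 1 for 4 of the 6. The list is small and, like the others, was chosen with earlier results of these data known, so its median is a description only. SERPINB1, which inhibits neutrophil serine proteases, was at 343 CPM in E2-2, 570 in E2A and 661 in HEB, against 867 in vector, 2.53-fold (2.45 to 2.61) lower in E2-2. SERPINB9, which inhibits granzyme B rather than a cathepsin, was at 35.9 CPM in E2-2, 74.1 in E2A and 102 in HEB, against 163 in vector. Against vector it lay 4.56-fold (4.15 to 5.01) lower in E2-2, and in E2A, where it was the only call, 2.21-fold (2.06 to 2.36) lower. In HEB, 1 of 7 measured inhibitors was called higher and none lower, beside 2.55% and 1.23% of all genes. That gene was CST7, a cystatin that blocks CTSC, with 44 reads in HEB against 5 in vector. CST7 reached the minimum of 30 reads only through HEB, so it could only be called higher.

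**Figure D4:**
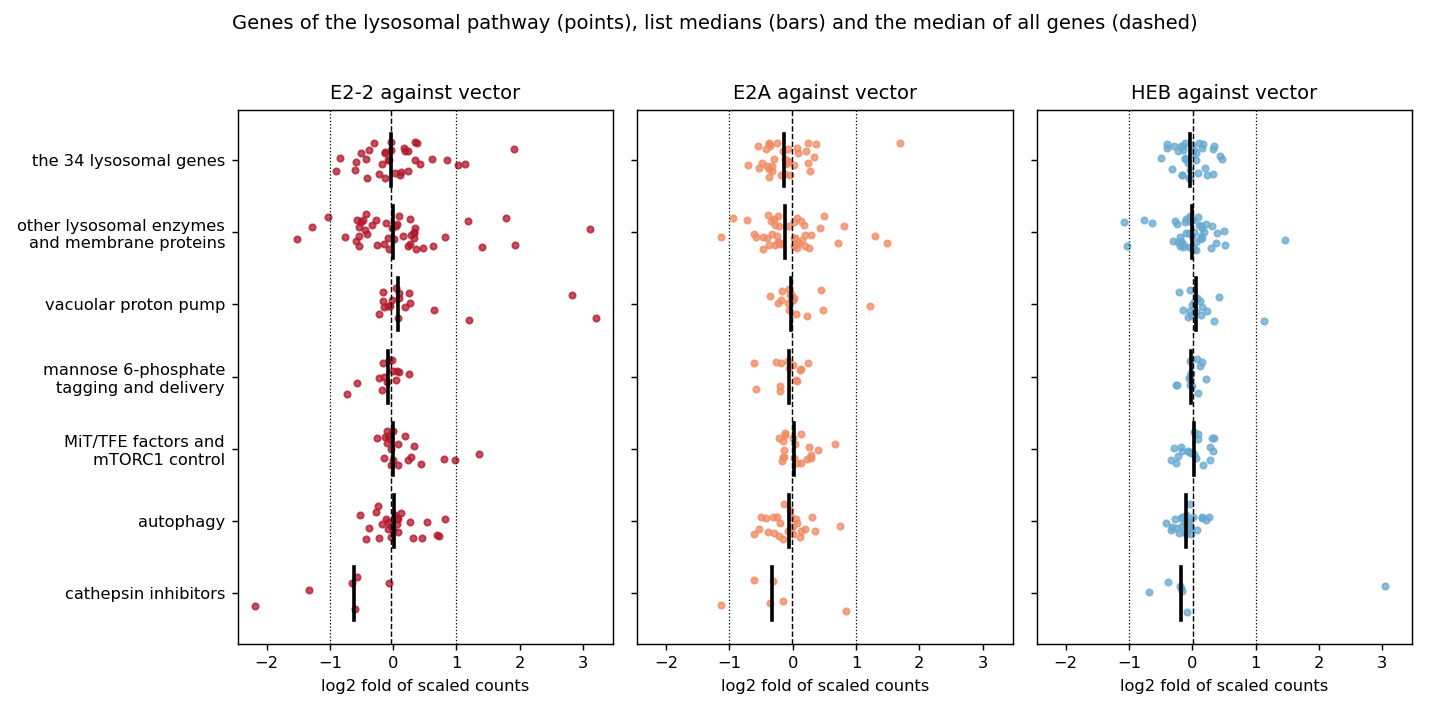
Log2 fold of scaled counts (horizontal axis) for each measured gene of 7 lists (rows, 1 point per gene, spread vertically only for legibility) in E2-2, E2A and HEB against vector, with list medians as black bars, the median of all genes dashed and 2-fold dotted. The list median furthest from the dashed line is that of the row labelled cathepsin inhibitors, at -0.62 in E2-2, -0.33 in E2A and -0.18 in HEB. That row holds only 6 or 7 measured genes, and the lists were chosen with earlier results of these data known. In E2A the median of the 34 genes is at -0.14.

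The deposited annotation assigns 118 genes to the KEGG lysosome pathway, among them 32 of the 34 (all but NEU1 and TFEB). This list was taken after the table had been seen. Of the 69 measured genes of the pathway that are not among the 34, 6 were called higher and 1 lower in E2-2, 2 higher and none lower in E2A, and 1 higher and none lower in HEB. Beside the all-gene shares of 8.45% and 3.55% in E2-2, 4.89% and 1.58% in E2A, and 2.55% and 1.23% in HEB, the counts of higher calls were near or below the background. Their medians of -0.01, 0.01 and 0.00 lay near those of all genes.

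Markers of other myeloid cells were summed over each list. The 9 neutrophil granule genes summed to 1569 CPM in E2-2, 1936 in E2A and 3456 in HEB, against 2878 in vector, nearly all from AZU1, ELANE and PRTN3. None of the 4 measured was called against vector. In E2-2 all 4 were at least 1.5-fold below vector with intervals below 1, beside 9.43% of all genes at that threshold. In E2A 1 of the 4 was 1.5-fold lower (5.01% of all genes) and in HEB none (3.73%). In E2-2 against HEB, 1 of the 4 was called lower, beside 1.57% of all genes. The 13 monocyte and macrophage markers summed to 46.5 CPM in E2-2, 13.4 in E2A and 8.16 in HEB, against 3.14 in vector, and CSF1R made up most of this, with 646 reads in E2-2 against 23 in vector. Of the 13, 2 were measured in E2-2 against vector, both with a fold above 1, and 1 was called higher, beside 8.45% of all genes. In E2-2 against HEB, 2 were measured and both were called higher, beside 6.09% of all genes. Only 1 was measured in HEB against vector. A marker with few reads in vector or HEB reaches 30 reads mainly through E2-2, so it could hardly be called lower. These counts therefore cannot be read against the all-gene shares. Others were almost without reads: C1QB had 0 reads in every library, MARCO and MSR1 had at most 1 and CD14 had 1 to 3. The 6 mast cell markers summed to 33.7 CPM in E2-2, 45.5 in E2A and 8.40 in HEB, against 2.37 in vector, mostly CPA3, while CMA1 had 0 reads in all libraries. The part of these markers in the lysosomal levels was not tested. In bulk RNA fewer cells of a type and less RNA per cell cannot be told apart.

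Other genes of the table overlap 19 of the 34. For 8 of them a single overlapping gene held over 5% as many reads as the gene itself. PLTP overlaps CTSA, TMPPE overlaps GLB1, SLC26A1 overlaps IDUA, SLC26A11 overlaps SGSH, C18orf8 overlaps NPC1 and PNPLA6 overlaps MCOLN1, besides the overlaps of LIPA and NPC2. Whether counting used the strand is not given in the sources used here, so values of these 8 genes are less certain than their intervals say.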

How the data were processed

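RNA-seq gave 4 expression libraries, 1 each for E2-2, E2A, HEB and vector, assigned from the labels' titles. The authors deposited a table of 50868 genes with whole-number read counts and FPKM values per library, per the file headers. Listed in the submitters' processing notes, with no roles, are hg19, hg38, MACS2 2.1.1.20160309, HTSeq 0.9.1, TopHat2 2.0.9 and Bowtie2 2.2.9. The sources used here do not give the annotation or the strand setting. For the 34 genes, count divided by FPKM and library total gave the same length in all 4 libraries after rounding to whole nucleotides. For 12 of them it exceeded 10000 nucleotides. FPKM was therefore not used to compare genes.

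Counts were scaled with edgeR 4.0.16 (TMM, R 4.3.3). Fold intervals are exact conditional binomial intervals (Clopper-Pearson), and CPM intervals are exact Poisson intervals. For folds, 3 reads stood in for a count of 0, and no fold is given when both counts were 3 or fewer. The rule was tested on simulated data. Python 3.11.15, numpy 2.4.6, scipy 1.17.1, pandas 2.3.3 and matplotlib 3.10.9 were used. Alternatives were summed counts, DESeq2 1.42.0 size factors, FPKM ratios, other read minimums and other fold thresholds. The genes and lists were chosen with earlier results of these data known. Named are all called genes, the 3 largest and 3 smallest folds against vector, and up to 4 called genes of each other list, with further genes added after their values were seen. None of 14 housekeeping genes and none of the 3 measured of 9 fibroblast or packaging cell genes was called against vector. Of 8 plasmacytoid dendritic cell genes, IRF7 was called higher in all 3 comparisons with vector and IRF8 in E2-2 and E2A. These were 2 of 3 measured genes in E2-2 and in E2A and 1 of 2 in HEB. The all-gene shares called higher were 8.45%, 4.89% and 2.55%, but most of the 8 had too few reads to be measured. Of 8 Kasumi-1 markers CD33 alone was called higher in all 3, beside the same shares. In E2-2 the interval lay below 1 for 5 of the 8 markers and above 1 for 2.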

Additional observations from a re-analysis of the deposited data

How the results depend on the processing

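Counts of calls stayed within 1.5 times under scaling by summed counts, by DESeq2 size factors and by FPKM ratios. Group medians moved by less than the median half-width of the gene intervals on the log2 scale. No called gene turned to the other side of 1. Of the folds that were not called, 2 fell outside their TMM interval with summed counts and 2 with FPKM ratios. Some folds close to 1 crossed it between scalings, such as SGSH and MCOLN1 in E2-2 against vector (1.03-fold below 1 with TMM). The FPKM ratios equal those from summed counts. The median log2 fold in E2-2 against vector, -0.04, was 0.01 with summed counts, and 18 in place of 16 genes then lay above 1. At a 1.5-fold threshold, 5 genes were higher and 4 lower in E2-2 against vector, 1 was lower in E2A against vector, 5 were higher in E2-2 against E2A, and 3 were higher and 2 lower in E2-2 against HEB. At a 3-fold threshold, 1 gene was higher in E2-2 against vector, and 0 in E2-2 against E2A, E2-2 against HEB and E2A against HEB. With at least 100 reads TFEB is measured only in E2-2 against E2A, and 0 genes were higher in E2A against vector, E2-2 against HEB and E2A against HEB. The same 3 counts were 0 without TFEB. Without the 8 genes that overlap others, 26 remained, and 0 were higher in E2-2 against E2A, since NPC2 is 1 of the 8. The last 2 choices were made after seeing the data. No paired analysis was possible because each group has 1 library. Depth limits TFEB most, with 15 to 55 reads per library.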
